A study of Saccharomyces cerevisiae with 4 samples.

Results

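The 42 genes described here encode the machinery of RNA polymerases I and III in the budding yeast Saccharomyces cerevisiae. They comprise the subunits of both enzymes, the factors that place them on their promoters, and the repressor Maf1. The genes were taken by name from a fixed list, and each was read by 1 probe set of the array, out of 5449 S. cerevisiae genes with a named probe set. None of the 42 probe sets is of a kind that can read more than 1 gene by its name.

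Messenger RNA of 2 strains, NBRC1950 and X2180, was measured on 4 Affymetrix Yeast Genome 2.0 arrays, 2 per strain from independent experiments. X2180 is a laboratory strain of the S288C lineage, from which the yeast reference genome was read, and NBRC1950 carries a number of the NBRC collection. Cells of both strains were grown with shaking in YPD, a rich glucose medium, and poly(A) RNA was labelled. The study, by its title, concerned tolerance to vanillin, and no vanillin treatment is given for these arrays. The labels give no mutation, treatment, ploidy, growth phase or cell density for either strain, so that strain and culture state at harvest cannot be told apart.

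RNA polymerase I transcribes the genes of the large ribosomal RNA precursor, and RNA polymerase III transcribes the 5S ribosomal RNA, the transfer RNAs and other small RNAs. In growing yeast these enzymes account for most of the RNA that is made, and their output follows nutrient supply through the TORC1 and protein kinase A pathways. The polymerases share several subunits with each other and some also with polymerase II, which makes messenger RNA. The arrays measured the messenger RNAs that encode the machinery, and not the assembled enzymes or their activity.

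Signals are deposited intensities after each array was scaled to the same median of the S. cerevisiae probe sets, which was 973.6. All 42 genes lay above background on all 4 arrays, where background is the 90th percentile of the probe sets that name no S. cerevisiae gene. Differences are log2 values of NBRC1950 minus X2180 from a limma fit over the whole table, and a gene was called at a Benjamini-Hochberg adjusted p under 0.05. No sequence of NBRC1950 was used and no probe was masked, so less transcript and poorer binding to the probes in that strain cannot be told apart. In a bulk culture, fewer cells that express a gene and less RNA per cell cannot be told apart.

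The machinery as a whole differed little between the strains, and its genes did not move in one direction. Of the 42 genes, 5 were higher in NBRC1950, 10 were lower and 27 did not pass the threshold. The called share was 35.7%, against 47.2% of the 5316 genes tested in all. Genes called higher made up 20.4% of all genes tested and genes called lower 26.8%. The median difference of the machinery was -0.05, and that of all tested genes was -0.05 too.

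Large differences were few among these genes. A call together with a difference of at least 0.5 on the log2 scale was seen for 4 of the 42 genes, against 22.6% of all genes tested, and 1 gene, TFC8, differed by 2-fold or more. The interquartile range of the machinery was -0.181 to 0.074, and that of all genes was -0.287 to 0.205. It was -0.07 to 0.191 for rRNA processing genes named UTP, NOP or RRP, and -0.14 to -0.04 for cytosolic ribosomal proteins. A call with at least 0.5 was seen for 4 of 53 and 2 of 122 of these, and for 0 of the 7 subunits of polymerase II alone. The lists were not matched for signal level. Between an NBRC1950 and an X2180 array, the differences of the 42 genes had an SD of 0.286 to 0.373, against 0.836 to 0.847 over all tested probe sets. Within the strains that SD was 0.107 for the NBRC1950 arrays and 0.175 for the X2180 arrays, against 0.191 and 0.202 over all tested probe sets. The arrays of the strains did not overlap for 29 of the 42 genes, against 75.7% of all genes tested.

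**Figure D1:**
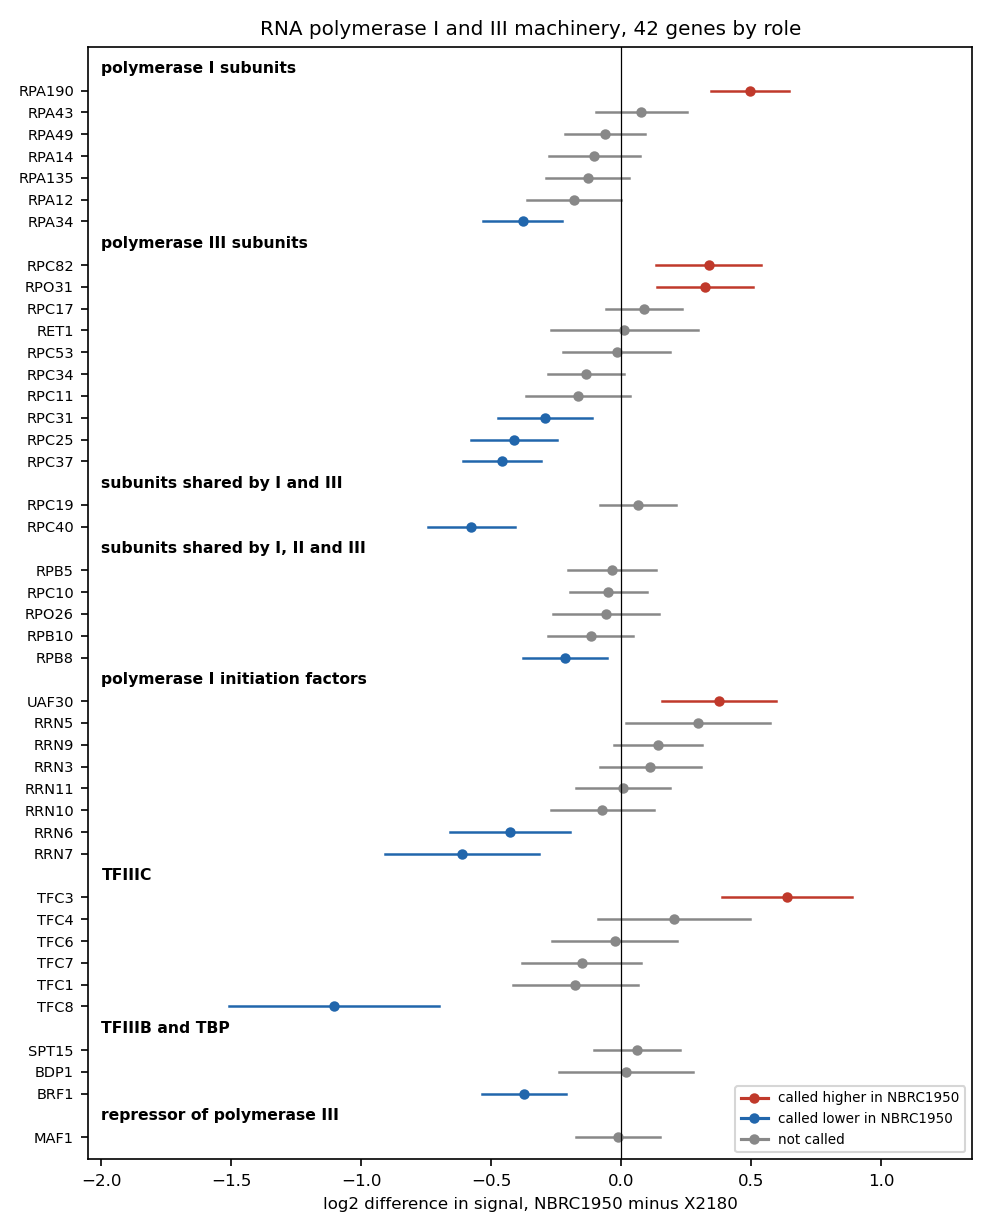
Log2 difference in signal, NBRC1950 minus X2180, of the 42 genes grouped by role. Points are limma estimates from 2 arrays per strain, bars are 95% confidence intervals and colours give the call. Called genes lie on both sides of 0 in the groups of polymerase I subunits, polymerase III subunits, initiation factors and TFIIIC, and TFC8 stands lowest at -1.10.

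The counts of higher and lower genes depended on how the arrays were scaled. With all probe sets used for scaling, 34 of the 42 were higher and 1 was lower, with a median of 0.49, where the median of all tested genes was 0.50. Of the 10 genes called lower, TFC8 was still called lower then, RPC40 (-0.03) and RRN7 (-0.07) were not called, and the other 7 had positive differences. Scaling to all probe sets rests on a dim level, since 5217 of the 10928 served as background. Before scaling, the middle value over every probe set was 36.88 and 48.13 on the NBRC1950 arrays. On the X2180 arrays it was higher, at 50.34 and 56.28. Probe sets naming a yeast gene had medians of 982.9 and 1171 in NBRC1950, against 894 and 964.4 in X2180. With no further scaling 5 were higher and 1 lower, with a median of 0.15 where that of all genes was 0.16. With quantile normalization 8 were higher and 9 lower. Under these 3 scalings, 92.5%, 70.7% and 52% of all called genes were higher in NBRC1950, against 43.2% with the main scaling. The values that follow are relative to the median gene.

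Polymerase I has 7 subunits of its own, and 2 of them were called, in opposite directions. RPA190, which encodes the largest subunit with the catalytic centre, had signals of 5995 and 6181 in NBRC1950, against 4239 and 4392 in X2180. It was higher in both NBRC1950 arrays than in either X2180 array, by 0.50 ± 0.06 (SE; limma adjusted p = 0.00067; 95% interval 0.35 to 0.65). RPA34 forms a heterodimer with RPA49 that resembles initiation factors of polymerase II. RPA34 had 5316 and 5609 in NBRC1950, against 7041 and 7163 in X2180. The strains did not overlap, and the difference was -0.38 ± 0.07 (SE; limma adjusted p = 0.00264; 95% interval -0.53 to -0.23). Its partner RPA49 was at -0.06 and did not pass.

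The other polymerase I subunits did not pass either. RPA135, the second largest subunit, was at -0.13, RPA12, which takes part in RNA cleavage, at -0.18, and the stalk subunits RPA43 and RPA14 at 0.08 and -0.10. RPA135 and RPA190 form the catalytic core together, and their 95% intervals, -0.29 to 0.03 and 0.35 to 0.65, did not overlap. RPA12 was called as lower without X2180 replicate 2 (-0.26; limma adjusted p = 0.0303).

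Polymerase III has 10 subunits of its own, of which 2 were higher and 3 lower in NBRC1950. RPO31, the largest subunit, had 2740 and 2748 in NBRC1950, against 2058 and 2340 in X2180, a difference of 0.32 ± 0.08 (SE; limma adjusted p = 0.0121). The NBRC1950 arrays were nearly equal and both lay above the X2180 arrays. RET1, the second largest subunit, stood at 0.01 and did not pass, with 2980 and 2912 in NBRC1950, against 3356 and 2541 in X2180. The NBRC1950 values lay between the X2180 values. The difference of RET1 was 0.21 without X2180 replicate 1 and -0.19 without X2180 replicate 2, so its sign depended on a single X2180 array.

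The heterotrimer of RPC82, RPC34 and RPC31, which acts in initiation, held calls in both directions. RPC82 had 1873 and 1747 in NBRC1950, against 1339 and 1534 in X2180, and was higher by 0.34 ± 0.09 (SE; limma adjusted p = 0.0152). RPC31 had 1665 and 1522 in NBRC1950, against 1883 and 2021 in X2180, and was lower, at -0.29 ± 0.08 (SE; limma adjusted p = 0.0165). Neither gene overlapped between the strains, and RPC34 was at -0.14 without a call. RPC82 missed the threshold when NBRC1950 replicate 1 (limma adjusted p = 0.0708) or X2180 replicate 1 (0.0615) was left out. RPC31 missed it when NBRC1950 replicate 2 (limma adjusted p = 0.114) or X2180 replicate 2 (0.0757) was left out.

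The remaining calls among polymerase III subunits were lower. RPC37, which pairs with RPC53 in a heterodimer needed for termination, had 1509 and 1484 in NBRC1950, against 2060 and 2049 in X2180. The arrays of each strain were close to each other, and RPC37 differed by -0.46 ± 0.06 (SE; limma adjusted p = 0.00102), while RPC53 was at -0.02 and did not pass. RPC25, a stalk subunit, had 1834 and 1720 in NBRC1950, against 2435 and 2293 in X2180, a difference of -0.41 ± 0.07 (SE; limma adjusted p = 0.00262). Its stalk partner RPC17 was at 0.09 and RPC11, the subunit for RNA cleavage, at -0.17, both without a call. RPC11 was called as lower without X2180 replicate 1 (-0.28; limma adjusted p = 0.0154).

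Of the subunits that polymerases I and III share with each other, RPC40 was lower and RPC19 was not called, though their products form a heterodimer. RPC40 had 4154 and 4123 in NBRC1950, against 6488 and 5868 in X2180, a difference of -0.58 ± 0.07 (SE; limma adjusted p = 0.00059). It was the lowest of all polymerase subunits here, and its call remained without any single array, at -0.65 to -0.50. RPC19 had 5890 and 5952 in NBRC1950, against 5688 and 5634 in X2180. The strains did not overlap for RPC19 either, but the difference was 0.06 with a 95% interval of -0.08 to 0.21. With quantile normalization RPC19 was called higher (0.19; limma adjusted p = 0.0207).

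Of the 5 subunits common to polymerases I, II and III, 1 was called. RPB8 had 6775 and 6868 in NBRC1950, against 8222 and 7635 in X2180, at -0.22 ± 0.07 (SE; limma adjusted p = 0.0348). Both NBRC1950 values were below both X2180 values, but RPB8 missed the threshold without either of the NBRC1950 arrays (limma adjusted p = 0.244 and 0.198) and with quantile normalization (0.185). RPB5, RPC10, RPO26 and RPB10 ranged from -0.12 to -0.04 without a call. With quantile normalization RPB5 (0.08), RPC10 (0.08) and RPO26 (0.05) had positive differences, and RPB5 reached 0.03 and RPO26 0.05 when 1 array was left out. RPB10 was called as lower without X2180 replicate 1 (-0.18; limma adjusted p = 0.0348). Of the 7 subunits that belong to polymerase II alone, 1 was higher and 2 were lower, with a median of -0.04. That is a called share of 42.9%, against 47.2% of all genes tested. The called ones were RPB9 (0.33), RPB7 (-0.23) and RPB11 (-0.21), and RPB4 was at -0.29 without a call (adjusted p = 0.0566 in limma).

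**Figure D2:**
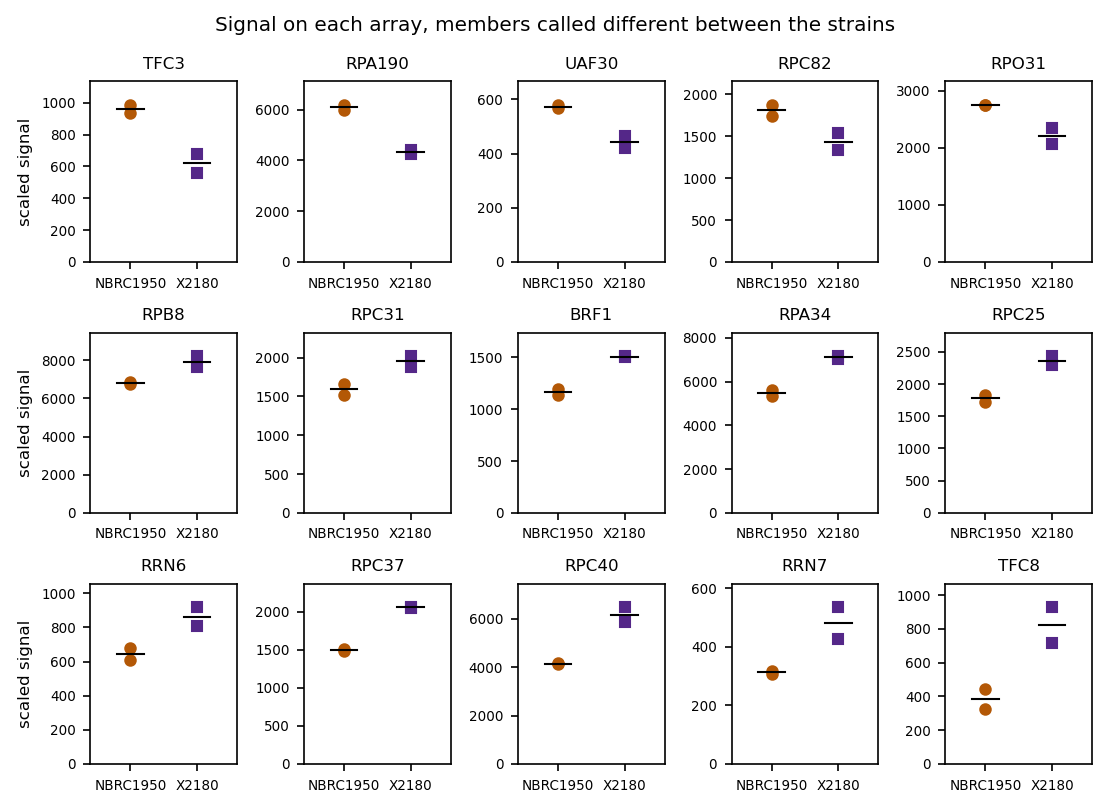
Scaled signal on each of the 2 arrays per strain (points) and their mean (bar) for the 15 genes called different, ordered from the most positive to the most negative difference. The first 5 genes, TFC3 to RPO31, are higher in NBRC1950 and the last 10, RPB8 to TFC8, are lower, with no overlap between strains in any panel.

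Factors that start polymerase I were called in 3 of 8 cases. The core factor, made of Rrn6, Rrn7 and Rrn11, binds the core promoter of the ribosomal DNA, and 2 of its 3 genes were lower. RRN7 had 305.8 and 318.3 in NBRC1950, against 425.6 and 535.1 in X2180, at -0.61 ± 0.13 (SE; limma adjusted p = 0.0061). RRN6 had 606.6 and 676.4 in NBRC1950, against 807.3 and 919.3 in X2180, at -0.43 ± 0.10 (SE; limma adjusted p = 0.00999). In both genes the NBRC1950 arrays lay below the X2180 arrays, while RRN11 was at 0.01 and did not pass. The difference of RRN7 was -0.45 without X2180 replicate 2 and -0.78 without X2180 replicate 1, with the call kept. RRN6 missed the threshold when NBRC1950 replicate 1 (limma adjusted p = 0.051) or X2180 replicate 2 (0.0589) was left out.

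The upstream activating factor, which binds the upstream element of the ribosomal DNA promoter, holds Rrn5, Rrn9, Rrn10 and Uaf30 together with histones. UAF30 had 566.8 and 579 in NBRC1950, against 419.2 and 464.7 in X2180, and was higher by 0.38 ± 0.09 (SE; limma adjusted p = 0.0134). With X2180 replicate 1 left out its limma adjusted p was 0.0519, with NBRC1950 replicate 1 left out 0.0503 and with NBRC1950 replicate 2 left out 0.0721, so that the call was kept in 1 of 4 cases. RRN5 was at 0.30 (limma adjusted p = 0.0767), RRN9 at 0.14 and RRN10 at -0.07, all without a call. With quantile normalization RRN5 was called higher (0.35; limma adjusted p = 0.0463). RRN3, whose product bridges polymerase I and the core factor, was at 0.11 with a 95% interval of -0.08 to 0.31.

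TFIIIC, which recognises the internal promoters of tRNA genes, had the most positive and the most negative difference of all 42 genes. TFC3, whose product contacts the B box, had 937.3 and 986.5 in NBRC1950, against 560 and 680.8 in X2180. It was higher on both NBRC1950 arrays, by 0.64 ± 0.11 (SE; limma adjusted p = 0.00227). TFC8 had 324.6 and 441.7 in NBRC1950, against 929.7 and 713.6 in X2180. The strains did not overlap, but the arrays of each strain were far apart, by 0.444 on the log2 scale in NBRC1950 and 0.382 in X2180. The difference of TFC8 was -1.10 ± 0.17 (SE; limma adjusted p = 0.00172), or 0.465 times the X2180 level, and ranged from -1.33 to -0.88 when 1 array was left out, with the call kept. The t-test that the methods name did not call TFC8 (unadjusted p = 0.0636). Nor did it call RPO31, RPC82, RPC31, RPB8, RRN6 or RRN7 (t-test, unadjusted p of 0.0578 to 0.0926). TFC3 and TFC8 belong to the part of TFIIIC that binds the B box, and the other member, TFC6, was at -0.02 without a call.

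The genes of the part of TFIIIC that binds the A box did not pass. TFC4, which recruits TFIIIB, was at 0.20, TFC7 at -0.15 and TFC1 at -0.18. TFC4 had 609 and 625.2 in NBRC1950, against 472.6 and 607.5 in X2180, and was called as higher without X2180 replicate 2 (0.39; limma adjusted p = 0.0272). Without X2180 replicate 1 it stood at 0.02.

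TFIIIB, which places polymerase III at the start site, consists of Brf1, Bdp1 and the TATA-binding protein. BRF1 had 1136 and 1190 in NBRC1950, against 1511 and 1500 in X2180, and was lower, at -0.37 ± 0.07 (SE; limma adjusted p = 0.0037). The strains did not overlap and the call remained without any single array. BDP1 was at 0.02 with a 95% interval of -0.24 to 0.27.

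SPT15 encodes the TATA-binding protein, which serves all 3 polymerases, and it was measured several times over. Its own probe set gave 6237 and 6775 in NBRC1950, against 6142 and 6325 in X2180, a difference of 0.06 with a 95% interval of -0.10 to 0.22. The 6 control probe sets that the array carries for the same transcript differed by -0.06 to 0.13, and 3 of them did not overlap between the strains. With quantile normalization SPT15 was called higher (0.18; limma adjusted p = 0.0375), and the 6 control sets stood between 0.07 and 0.25. With all probe sets used for scaling, they stood between 0.49 and 0.68.

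MAF1, the repressor that shuts down polymerase III when nutrients run out, was nearly the same in both strains. It had 1476 and 1459 in NBRC1950, against 1439 and 1526 in X2180. The NBRC1950 values lay between the X2180 values, and the difference of -0.01 had a 95% interval of -0.18 to 0.15. Maf1 is known to be controlled by phosphorylation, which arrays do not show.

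Kinases and phosphatases that act on this machinery were called in both directions. Of 23 measured genes of TORC1, protein kinase A, casein kinase 2 and the phosphatases, 6 were higher and 2 lower, with a median of 0.14. The called share was 34.8%, against 47.2% of all genes tested, and no difference between them was tested. SCH9, the kinase that phosphorylates Maf1 downstream of TORC1, was higher by 0.64 (limma adjusted p = 0.000294), TPD3, a scaffold of phosphatase 2A, by 0.49 and PSY4, a regulator of phosphatase 4, by 0.53. PPH3, the catalytic subunit of phosphatase 4, which removes phosphates from Maf1, was lower, at -0.52 (limma adjusted p = 0.0033). Of 6 tested transcription factors of ribosome synthesis genes, 1 was higher, SFP1 (0.74; limma adjusted p = 0.000835), and 0 were lower, also at an unadjusted p under 0.05, whereas STB3 (0.25), TOD6 (0.21) and FHL1 (-0.18) were not called. The called share of the 6 factors was 16.7%. CRF1, the other listed factor, was too dim to be tested.

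Genes of ribosomal DNA chromatin, of assembly and of transcript maturation went both ways. Of 20 measured genes of ribosomal DNA chromatin and elongation, 2 were higher and 3 lower, a called share of 25% against 47.2% of all genes tested. HHT2, a histone H3 gene, was at -0.71, SIR2, a silencing deacetylase, at -0.52 and SPT5, an elongation factor, at -0.29, and REB1, which binds terminators of the ribosomal DNA, at 0.45. HHT1, the other histone H3 gene, was at -0.01 without a call. Of 8 genes of polymerase assembly and import, 3 were higher and 2 lower, a called share of 62.5%. RTR1 was at 0.72, RBA50 at 0.40, GPN2 at -0.26 and NPA3, a GTPase needed for nuclear import of polymerase II, at -0.81. Of 19 genes for the maturation of polymerase III transcripts, 4 were higher and 4 lower, a called share of 42.1%. They included the RNase P subunits POP5 (0.59) and POP8 (-0.69), the tRNA splicing endonuclease subunit SEN15 (-0.63) and CCA1 (0.46), which adds the tRNA end.

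Genes that act beside this machinery in making ribosomes were counted as well. Of 53 rRNA processing genes named UTP, NOP or RRP, 14 were higher and 5 lower, with a median of 0.09. The called share was 35.8%, against 47.2% of all genes tested, of which 20.4% were higher and 26.8% lower. RRP7 (0.65), UTP10 (0.55), NOP16 (0.47) and RRP5 (0.44) were among the higher ones. Of 122 genes of cytosolic ribosomal proteins, 0 were higher and 5 lower in limma, a called share of 4.1%, with a median of -0.09. At an unadjusted p under 0.05 in limma, 0 were higher and 15 lower. A positive difference was seen for 21 of the 122, against 2371 of all 5316 genes tested. Some of the 122, RPL11B and RPL14B among them, were read by probe sets of a kind that can read more than 1 gene. RPL4B (-2.22) and RPL22B (-0.64) had the most negative of the named values, beside RPS0B (-0.32) and RPS15 (-0.23). With all probe sets used for scaling, 51 of the rRNA processing genes and 118 of the ribosomal protein genes were higher, and 1 of each was lower. With quantile normalization, 4 ribosomal protein genes were higher and 3 lower, with a median of 0.01, where that of all tested genes was 0.02. The differences between these lists were not tested.

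**Figure D3:**
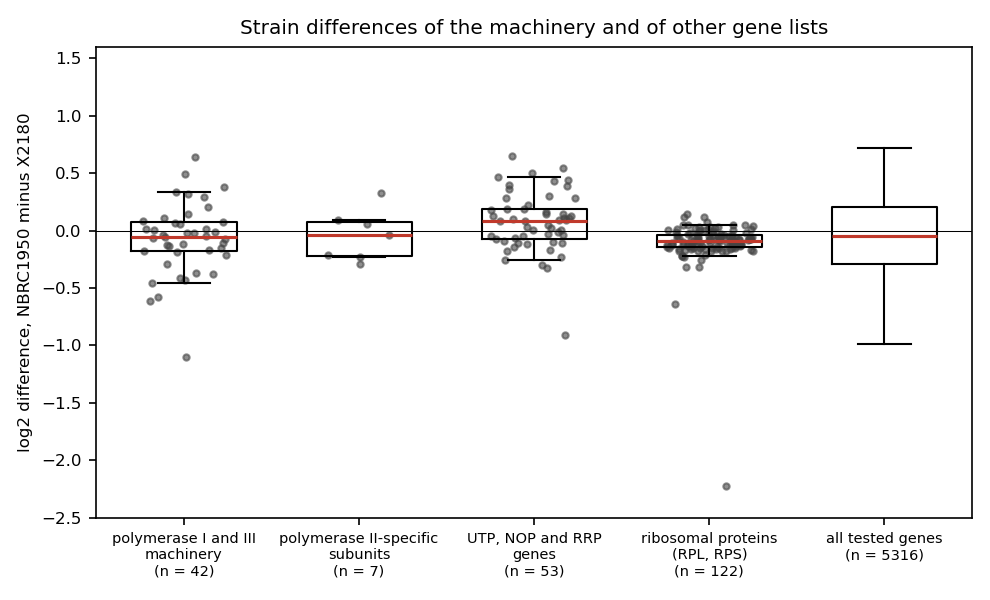
Log2 differences, NBRC1950 minus X2180, of the 42 machinery genes, other lists and all 5316 tested genes. Boxes span the interquartile range, the line is the median, whiskers reach the 5th and 95th percentiles, and dots are single genes (not drawn for all tested genes, whose lowest and highest lie outside the axis). The medians of the machinery and of all genes are both -0.05, and the machinery is narrower than all genes, as are the other lists drawn.

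Some markers of stress and of resting cells were higher in NBRC1950. Of 12 such genes 6 were called higher and 0 lower in limma, also at an unadjusted p under 0.05. The called share was 50%, all of it higher, against 20.4% of all genes tested called higher and 47.2% called in either direction. The median of the 12 was 0.605, against -0.047 over all genes tested, and no difference between the lists was tested. One of the 6, DDR2, was above background on both NBRC1950 arrays and on neither X2180 array, so that it passed the filter through NBRC1950 alone. HSP26, a small heat shock protein, was higher by 2.85 (limma adjusted p = 7.36e-06), HXK1, a glucose-repressed hexokinase, by 1.55, TPS2, an enzyme of trehalose synthesis, by 0.78 and SPI1, a cell wall protein, by 0.68. The 6 that did not pass were HSP12 (0.49), SOL4 (0.53), CTT1 (0.06), GRE1 (0.04), SSA3 (-0.03) and SSA4 (-0.17). The part of culture state in the differences of the polymerase genes was not tested.

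The ribosomal RNA itself was read by 17 control probe sets, although poly(A) enrichment removes most of it. All 17 were lower in NBRC1950 with no overlap between the strains, with differences of -1.86 to -0.66 and a median of -1.14. For the 18S rRNA the lowest difference, of 8 probe sets, was that of a set with 619.6 and 633.3 in NBRC1950, against 3414 and 1519 in X2180. The 25S rRNA sets differed by -1.14 to -0.66 and the 5.8S rRNA set by -0.79. All 17 also stood below 0 with all probe sets used for scaling (-1.32 to -0.12), with no further scaling (-1.65 to -0.46) and with quantile normalization (-1.82 to -0.55). These signals depend on how much ribosomal RNA passed the enrichment, and for 1 set the X2180 arrays lay 1.17 apart, so they do not measure the output of polymerase I.

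**Figure D4:**
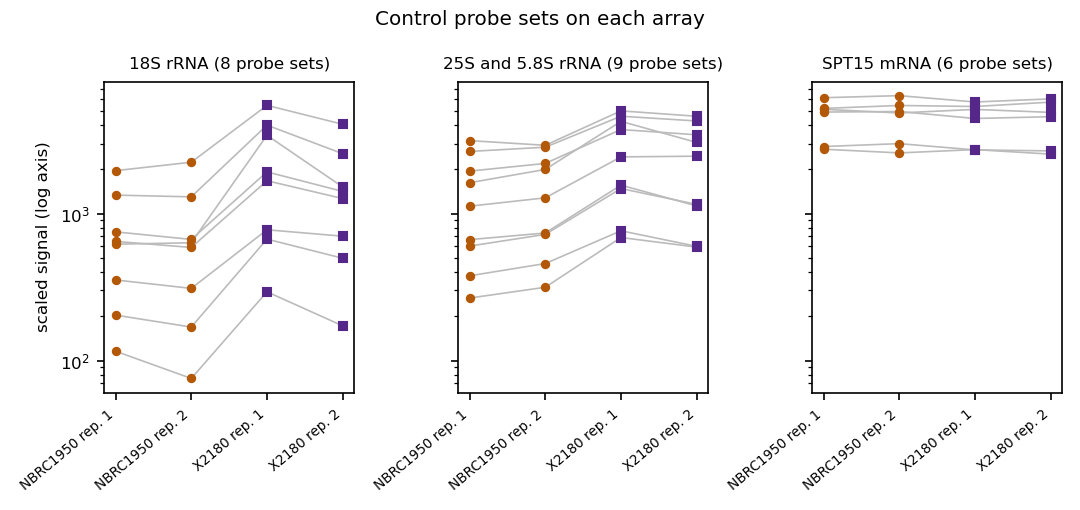
Scaled signal (log axis) of control probe sets on the 4 arrays, with 1 line for each probe set. The 17 rRNA sets lie lower on both NBRC1950 arrays than on both X2180 arrays, while the 6 SPT15 sets differ by -0.06 to 0.13 between strains. Of the SPT15 sets, 3 do not overlap between the strains and are higher in NBRC1950 (0.085, 0.121 and 0.131).

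By gene length, the median difference was highest in the longest class. Of 8 genes over 2000 bases in the R64 gene table, 3 were higher and 1 was lower, with a median of 0.11. Of 15 genes of 1000 to 2000 bases, 1 was higher and 4 were lower (26.7%), with a median of -0.02. Of 19 genes under 1000 bases, 1 was higher and 5 were lower (26.3%), with a median of -0.10. Across the 42 genes Spearman's rho was 0.26 and Pearson's r with log2 length 0.21, a description, since the genes share the same 4 arrays. Among all tested genes rho was 0.11, and 26.3% of those over 2000 bases were higher and 18% lower, against 18.3% and 29.3% of those under 1000 bases.

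Ratios of 3' to 5' signal, often read as signs of RNA integrity, differed between strains for some control transcripts, in both directions. For SRB4, a long transcript, 3' signal over 5' signal on the log2 scale was 2.66 and 2.83 in NBRC1950, against 2.05 and 2.18 in X2180. For SPT15 it was 1.10 and 1.08 in NBRC1950, against 1.08 and 1.18 in X2180. For TDH1 it was 0.416 and 0.232 in NBRC1950, against 0.68 and 0.729 in X2180, so that the strains differed in opposite directions for SRB4 and TDH1. ACT1 lay higher in NBRC1950 (0.332 and 0.309, against 0.196 and 0.257 in X2180). RIP1 lay lower (0.285 and 0.247, against 0.514 and 0.303 in X2180), and URA3, WBP1 and EAF5 overlapped between the strains. The part of these ratios in the relation to length was not tested.

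**Figure D5:**
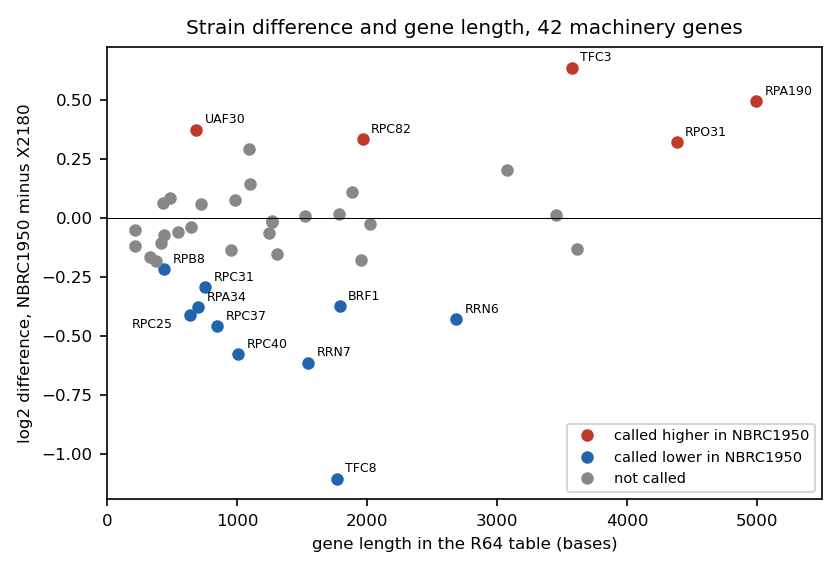
Log2 difference, NBRC1950 minus X2180, against gene length in bases for the 42 genes, with called genes named. TFC3, RPA190 and RPO31, all over 2000 bases, were called higher, and RRN6, also over 2000 bases, was called lower. Of the 10 genes called lower, 5 are under 1000 bases, as are 19 of the 42 genes.

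The neighbours of the 4 genes called at 0.5 or more were also read where they had a tested probe set. VPS8, next to TFC3, was higher by 0.70 (limma adjusted p = 0.000912), and NUP60 on the other side by 0.30 (0.00771). By their systematic names, TPD3 (0.49), POP5 (0.59) and SEN34 (0.44) of the other lists lie on chromosome I, as TFC3 does. All of them were called higher. The remaining genes of chromosome I were not counted here, and a difference of the chromosome as a whole was not tested. CHL1 beside TFC8 was lower, at -0.27 (limma adjusted p = 0.0175), and NCR1 on its other side was at -0.01 without a call. The neighbours of RRN7, RNR2 and APS3, were at 0.12 and 0.17 without a call, and DBF20 beside RPC40 was higher by 0.29 (limma adjusted p = 0.0352).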

How the data were processed

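The table the authors deposited holds linear intensity values, 1 for each probe set on each of the arrays. GCOS is the tool named in the submitters' processing notes, and no source used here says whether it scaled the arrays. Per the design text, the authors then divided by the 50th percentile and by X2180 in GeneSpring, which is not visible in the deposited intensity values. The array annotation gave 5498 of 10928 probe sets an S. cerevisiae gene through the R64 table, 5217 others served as background and 213 were controls.

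Intensities were scaled per array, floored at 4.567 and converted to log2. Probe sets were tested when their mean was above 16.35, the 90th background percentile, and 5358 of them passed, for 5316 genes. The test was limma 3.58.1 under R 4.3.3 (lmFit and eBayes with an intensity trend, Benjamini-Hochberg over all tested probe sets), with 2 residual degrees of freedom and 5.415 prior ones. The number of arrays limits the precision. The fit was tested on simulated data. The brightest probe set stood for a gene. On the lists of chosen genes, 2 genes, HHF2 among them, had no named probe set. Of the 132 ribosomal protein genes taken by name, 122 had one.

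Members and lists were chosen with earlier results of these data known. All members are accounted for, with values by array for called members, MAF1 and SPT15, and a few others chosen after their values were seen. Of other lists, up to 4 genes with the smallest adjusted p are named, and those beyond that were chosen after their values were seen. A planned count of promoter motifs was not run, since no sequence was used here.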

Additional observations from a re-analysis of the deposited data

How the results depend on the processing

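With all probe sets used for scaling, 4289 of all genes were called, with 34 machinery genes higher, 1 lower and a machinery median of 0.492; RPA34 (0.167), RPC37 (0.089), RPC31 (0.253), RPC25 (0.134), RPB8 (0.33), RRN6 (0.118) and BRF1 (0.173) then changed sign. With no further scaling, 1308 genes were called, 5 machinery genes were higher and 1, TFC8, was lower, with a median of 0.155. Quantile normalization gave 8 higher and 9 lower, with RPB8 lost and SPT15, RPC19 and RRN5 gained. The t-test that the methods name called 2071 genes, with 4 machinery genes higher and 6 lower, at its unadjusted threshold (8 of the 15 calls kept, and RPC19 and RPC34 gained), and 530, with 1 and 1, after Benjamini-Hochberg adjustment. With 1 array left out in turn, 3 to 6 machinery genes were higher and 8 to 12 lower, with medians of -0.073 to -0.037, and 1835 to 2331 genes were called in all; 3 were higher without NBRC1950 replicate 1. Subtracting the background median, adding 16 in place of a floor, a filter at the 95th background percentile, no filter and the mean over probe sets kept all 15 calls, and a fit with no intensity trend kept 14. Of the 27 genes without a call, 16 changed sign when scaled to all probe sets and 16 with no further scaling. Replicate numbers were not treated as pairing the samples: deviations of arrays with the same number correlated at 0.059, and a fit with the replicate block called 2671 genes, with 5 machinery genes higher and 11 lower. The machinery median minus the median of all tested genes was -0.006 with the main scaling, with all probe sets and with no further scaling. With quantile normalization it was -0.028. Scaling to all probe sets rests on a dim level, which before scaling lay between 36.88 and 56.28 on the arrays. The causes of the changes between settings were not tested. All 42 genes lay above background, and the number of arrays limits these results.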
